A study of Mus musculus with 24 samples.

Results

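The genes described here are CXC and CX3C chemokines and their receptors, 9 of the 33000 genes in the deposited count table, taken by symbol: the chemokine ligands Cxcl1, Cxcl10, Cxcl12, Cxcl13, Cxcl14, Cxcl16 and Cx3cl1, and the receptors Cxcr4 and Ackr3. They were measured by 3′Pool-seq, an RNA-seq method that reads the 3′ end of polyadenylated transcripts, in frontal cortex of 3-month-old mice. The 3 wild-type (WT) mice were C57BL/6, and the 3 GFAP-IL6 mice were homozygous for a transgene in which, as its name says, the promoter of the astrocyte gene Gfap drives the cytokine interleukin 6. The labels list C57BL/6 as the strain of both genotypes. The RNA of each mouse was made into 4 libraries, with 2 ng or 1 ng of cDNA going into tagmentation (the step that cuts and tags the cDNA) in each of the sets A and B, letters that the labels do not explain further. The mouse was therefore the replicate, with n = 3 per genotype, and the 4 libraries of a mouse were summed for the main comparison. All levels below are CPM (a gene's reads relative to all reads counted in the library) scaled by TMM, which corrects library totals for differences in composition.

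Chemokines are small secreted proteins that guide migrating cells along a gradient. They are named for the spacing of their first conserved cysteines, with an intervening residue in the CXC class and a longer gap in the CX3C class. In the brain, Cx3cl1 (fractalkine) is made mainly by neurons and is read by Cx3cr1 on microglia, Cxcl12 acts on Cxcr4 and is scavenged by Ackr3, and Cxcl14 is a homeostatic chemokine of epithelia and some neurons. Cxcl16 is a transmembrane ligand of macrophages and other cells that binds Cxcr6. Cxcl1 attracts neutrophils, Cxcl10 is an interferon-induced ligand of Cxcr3, and Cxcl13 attracts B cells through Cxcr5.

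The coding bases that give the class its name are shown for the 4 ligands that carried enough reads to be tested. Each stretch runs 5′ to 3′ on the coding strand, from the GENCODE vM21 transcripts. The capitals run from a cysteine codon (TGT or TGC) to another at the spacing of the class. The first such pair in the coding bases was taken, so the spacing was set by the search.
Cxcl16: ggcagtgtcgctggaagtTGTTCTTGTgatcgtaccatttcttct
Cxcl14: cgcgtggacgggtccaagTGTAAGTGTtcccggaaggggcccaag
Cxcl12: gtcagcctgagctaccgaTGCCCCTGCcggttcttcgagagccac
Cx3cl1: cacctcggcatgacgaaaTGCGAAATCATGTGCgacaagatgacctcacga
In Cxcl16, Cxcl14 and Cxcl12 the cysteine codons are separated by 1 codon, and in Cx3cl1 by 3 codons. On mm10 the capitals lie at chr11:70459127-70459135 on the minus strand (Cxcl16), chr13:56295915-56295923 on the minus strand (Cxcl14), chr6:117171508-117171516 on the plus strand (Cxcl12) and chr8:94778051-94778065 on the plus strand (Cx3cl1). In each of these genes they fall in exon 2 of the coding transcript. The printed Cxcl14 stretch runs across an exon junction.

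Library totals ranged from 1524165 to 12256374 counts, and mouse totals from 7852743 (WT mouse 3) to 37582644 (GFAP-IL6 mouse 3). The genotype labels were checked first on Il6, which had 5, 3 and 0 summed counts in the WT mice and 30, 33 and 163 in the GFAP-IL6 mice. Gfap rose from 19.95 ± 3.78 CPM in WT to 110 ± 33.4 CPM in GFAP-IL6 mice (SD, n = 3 each), a log2 fold change of 2.44 (SE 0.185, adjusted p = 1.59e-06, edgeR quasi-likelihood test with Benjamini-Hochberg adjustment). Markers of cortical neurons and glia were all detected. WT mouse 3 stood apart in choroid plexus markers, which summed to 4070 CPM there, against 105 and 160 CPM in the other WT mice and 77.8 to 751 CPM in the GFAP-IL6 mice. As these are bulk samples, fewer cells of a type and less RNA per cell cannot be told apart in any value below.

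Of the 9 members, 5 had enough reads to be tested in the summed libraries (Cx3cl1, Cxcl14, Cxcl12, Cxcl16 and Ackr3), and 1 of them, Cxcl16, was called different between genotypes. A gene was called at an adjusted p under 0.05 with an absolute log2 fold change above 1, a rule that 180 of 14621 genes met (1.23%). Of these, 176 were higher in GFAP-IL6 mice and 4 were lower. The median log2 fold change of the 5 members was -0.08, and that of all genes tested was -0.01. Cxcl1, Cxcl10, Cxcl13 and Cxcr4 held between 1 and 44 counts per genotype and did not pass the filter on low counts.

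**Figure D1:**
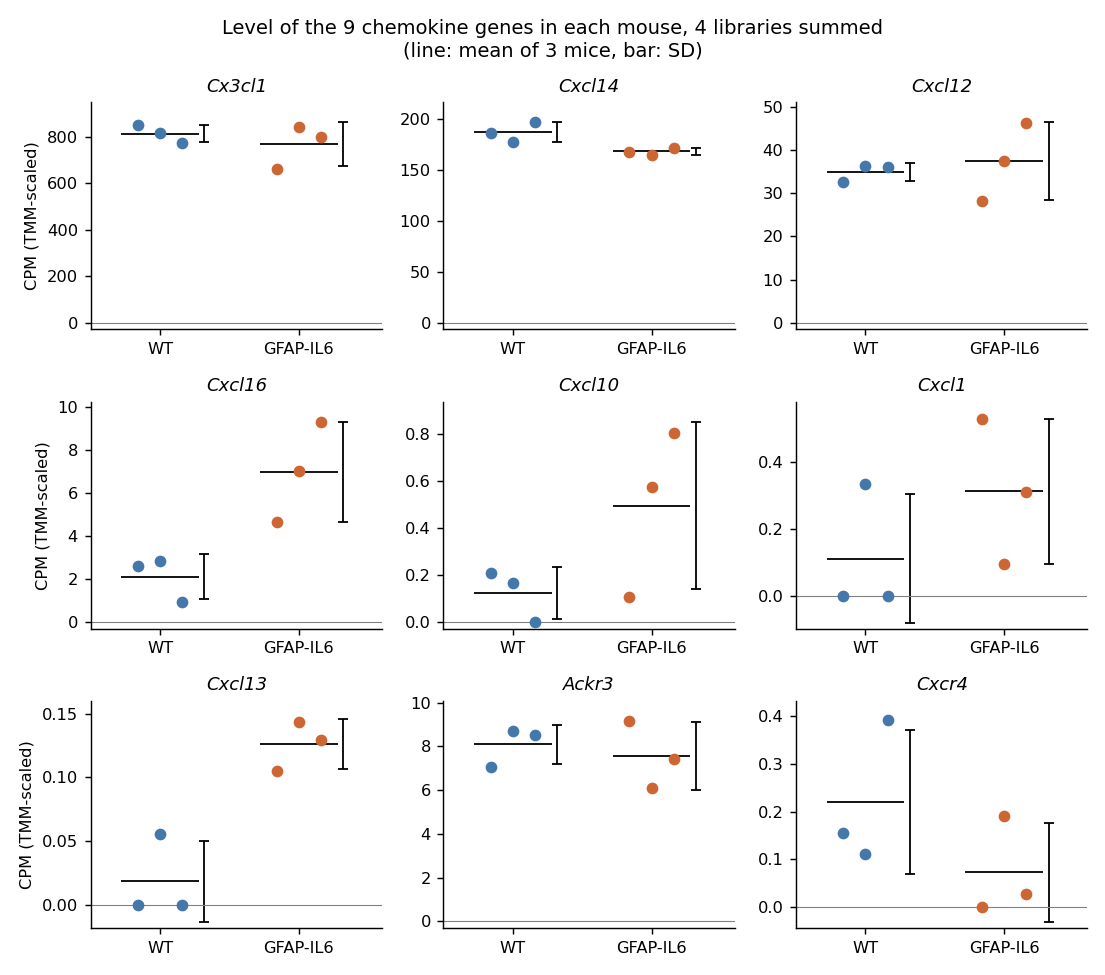
TMM-scaled CPM of each of the 9 genes (y axis, linear, a separate scale per panel) in the 3 WT (blue) and 3 GFAP-IL6 mice (orange), with 1 point per mouse for its 4 summed libraries, the mean as a line and the SD as a bar beside it. The 3 GFAP-IL6 points lie above all WT points for Cxcl16 (4.64 to 9.31 against 0.918 to 2.82 CPM) and below them for Cxcl14 (165 to 172 against 177 to 197 CPM), and the panels of Cxcl1, Cxcl10, Cxcl13 and Cxcr4 rest on few reads.

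Levels in WT cortex fell into a wide order. Mean WT levels were 815 CPM for Cx3cl1, 187 for Cxcl14, 34.9 for Cxcl12, 8.10 for Ackr3 and 2.11 for Cxcl16. Per kilobase of the deposited gene length they were 246, 102, 4.88, 2.64 and 0.783 CPM, in the same order. The ranges of these 5 genes over the WT mice did not overlap. Cxcr4 at 0.122, Cxcl1 at 0.116, Cxcl10 at 0.0820 and Cxcl13 at 0.0160 CPM per kilobase could not be ordered beyond their spread, and without the division by length Cxcl1 and Cxcl10 changed places. Since 3′ reads come from the end of a transcript whatever its length, the study did not normalize for gene length. Dividing by length therefore alters the spacing between these genes by their lengths. Neither scale was calibrated to a molar amount. Cx3cl1 made up 75.8% to 79.5% of the reads of the 9 members in each mouse and Cxcl14 a further 15.6% to 19.3%.

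Among the ligands, Cxcl16 showed the one genotype difference that passed the test. The gene lies at chr11:70453983-70459984 on the minus strand, with 5 exons and a 3′ UTR of 1424 bases in its last exon. Zmynd15, a gene on the opposite strand, overlaps it outside the last exon, and whether the counting used strand was not given. Cxcl16 had 50, 51 and 7 counts in WT mice 1 to 3 and 44, 146 and 359 counts in GFAP-IL6 mice 1 to 3. Its level was 2.60, 2.82 and 0.918 CPM in the WT mice and 4.64, 6.998 and 9.31 CPM in the GFAP-IL6 mice. Every GFAP-IL6 mouse was thus above every WT mouse, with WT mouse 3 lowest and GFAP-IL6 mouse 3 highest. The mean was 2.11 ± 1.04 CPM in WT and 6.98 ± 2.33 CPM in GFAP-IL6 mice (SD, n = 3 each), and the exact permutation test over mice gave its smallest possible two-sided p of 0.1. In the edgeR fit Cxcl16 rose by 1.65 on the log2 scale (SE 0.308), a fold of 3.13 (95% interval 1.99 to 4.94), with an adjusted p of 0.00832. The mice with the most extreme levels were also the ones with extreme depth, and with all mice thinned to the smallest total the log2 fold change was 1.53 (adjusted p = 0.0463). Without GFAP-IL6 mouse 3 it was 1.38 and no longer passed (adjusted p = 0.0875), whereas leaving out any other mouse kept the call, including WT mouse 3 with the high choroid plexus markers (1.42, adjusted p = 0.00999).

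The 4 sets gave the same direction for Cxcl16 and differed in whether it passed. They are technical repeats of the same 6 RNAs and make up the sums, so they are no separate evidence. The log2 fold change with 2 ng was 1.35 in set A (adjusted p = 0.0911) and 1.72 in set B (adjusted p = 0.0419), and with 1 ng it was 2.14 in set A (adjusted p = 0.00985) and 1.53 in set B (adjusted p = 0.182), all from edgeR with Benjamini-Hochberg adjustment. Cxcl16 was therefore the single member called in 2 of the 4 sets, and no member was called in the others. Over all genes the called share was 0.681% (2 ng, set A), 0.744% (2 ng, set B), 0.774% (1 ng, set A) and 0.755% (1 ng, set B). The GFAP-IL6 and WT libraries did not overlap in 3 of the sets, and the share of all genes without overlap was not counted per set. In 1 ng set B, GFAP-IL6 mouse 1 at 2.59 CPM (8 counts) fell below WT mouse 1 at 3.30 CPM (21 counts) and WT mouse 2 at 2.82 CPM (17 counts). Library counts were low, from 0 to 21 in WT libraries and 8 to 124 in GFAP-IL6 libraries. The limma-voom test of whether the genotype difference depended on the set gave an adjusted p of 1.0 for each of the 5 members, Cxcl16 included. No gene of 13249 passed that test (0.0%), while 534 had an unadjusted p under 0.05.

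**Figure D2:**
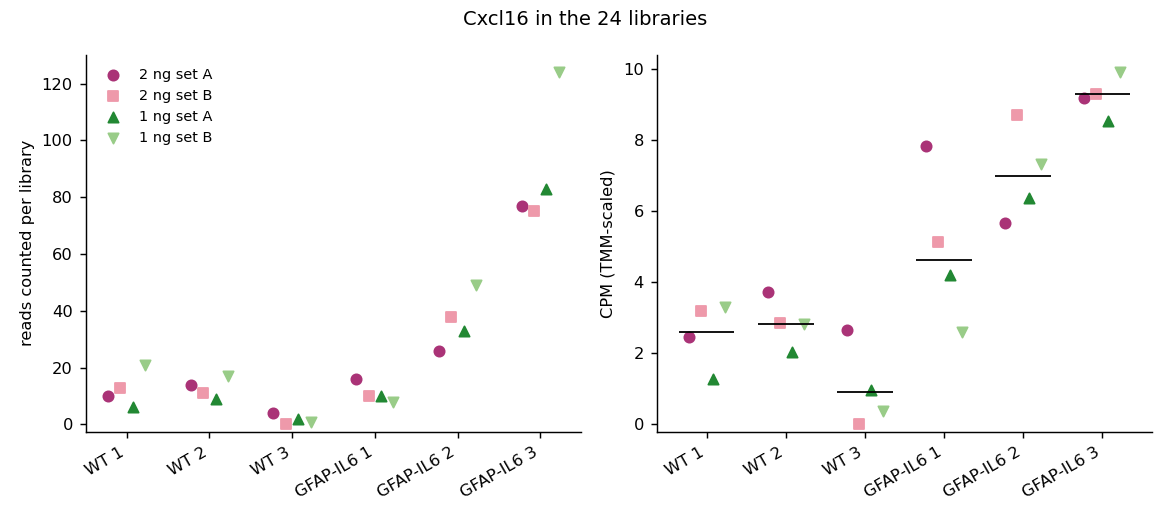
Reads counted (left y axis, per library) and TMM-scaled CPM (right y axis) of Cxcl16 in the 24 libraries, by mouse on the x axis and by set as symbols, with the black line marking the CPM of the 4 summed libraries of a mouse. WT mouse 3 had 0 to 4 reads per library, and GFAP-IL6 mouse 3 had 75 to 124 reads and the highest CPM in each set.

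Markers of microglia, endothelium, mural cells and monocytes moved in the same direction as Cxcl16. Of 14 marker lists, these were the 4 whose summed CPM did not overlap between genotypes. The astrocyte list overlapped narrowly, at 1545 to 1678 CPM in WT and 1677 to 1813 CPM in GFAP-IL6 mice. None of its 6 markers passed. As single genes, 14.4% of all genes tested did not overlap, and 1.8% passed at an adjusted p under 0.05 with any fold. The 8 microglia markers summed to 374 to 420 CPM in the WT mice and to 606 to 790 CPM in the GFAP-IL6 mice, 7 of the 8 rose at an adjusted p under 0.05 and 3 of them (Aif1, C1qa and Itgam) also passed the fold threshold. P2ry12, a homeostatic microglial receptor, had a log2 fold change of -0.02. Relative to the summed markers, Cxcl16 was at 0.694%, 0.672% and 0.234% in the WT mice and at 0.766%, 1.01% and 1.18% in the GFAP-IL6 mice. Endothelial markers summed to 116 to 124 CPM in WT and 137 to 226 CPM in GFAP-IL6 mice, and 2 of 6 rose at an adjusted p under 0.05, Flt1 (log2 fold change 0.70, adjusted p = 0.00637) and Ly6c1 (0.82, adjusted p = 0.0142). Mural markers summed to 141 to 176 CPM in WT and 185 to 217 CPM in GFAP-IL6 mice, and 1 of 5, Rgs5, rose (0.52, adjusted p = 0.0206). None of the 4 border macrophage markers passed the test, and their sum was 4.59 to 4.82 CPM in WT and 4.64 to 4.85 CPM in GFAP-IL6 mice. The 3 monocyte markers were low and higher in GFAP-IL6 mice, with a sum of 0.260 to 0.720 CPM in WT and 0.949 to 1.996 CPM in GFAP-IL6 mice. Ccr2 had 15 counts in WT and 60 in GFAP-IL6 mice and did not pass (log2 fold change 1.26, adjusted p = 0.668), and Plac8 (4 and 34 counts) and Ly6c2 (1 and 18 counts) were too low to test. The 6 neutrophil markers summed to 0.393 to 3.38 CPM in WT and 1.48 to 5.49 CPM in GFAP-IL6 mice, with overlapping genotypes. Of these S100a8 had 62 and 157 counts, S100a9 28 and 72, Retnlg 7 and 16 and Ngp 7 and 23, and Ly6g and Mmp8 had none. The 9 T and B cell markers overlapped too, at 0.918 to 4.32 CPM in WT and 3.03 to 3.48 CPM in GFAP-IL6 mice. Of these, 2 could be tested and neither passed. Cd3e had 1 and 8 counts, Cd3d 1 and 13, Cd3g 2 and 23 and Cd8a 0 and 6, while the B cell marker Ms4a1 had 6 and 3. The part of any of these markers in the Cxcl16 difference was not tested.

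The genes whose mean-centred log2 profile over the 6 mice was closest to that of Cxcl16 were Adgre1, AB124611 and Fgd2, with root mean square differences of 0.121, 0.195 and 0.195. They were picked from all genes tested by likeness to a called gene. Their rise in GFAP-IL6 mice therefore follows from that choice and is no separate result. Adgre1, which encodes the macrophage antigen F4/80, rose from 3.86 to 10.5 CPM (log2 fold change 1.37, SE 0.260, adjusted p = 0.00904, edgeR). Fgd2 rose by 1.34 on the log2 scale (adjusted p = 0.00297), and AB124611 had a log2 fold change of 2.33 and did not pass (adjusted p = 0.0593).

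Cx3cl1, the neuronal ligand, was the most abundant member and differed little between genotypes. It lies at chr8:94772009-94782427 on the plus strand, with 3 exons. Its level was 850, 818 and 775 CPM in WT mice 1 to 3 and 661, 842 and 800 CPM in GFAP-IL6 mice 1 to 3. The genotypes overlapped, and GFAP-IL6 mouse 1 was the lowest of the 6. The log2 fold change was -0.08 (SE 0.0974), a fold of 0.943 with a 95% interval of 0.816 to 1.09 (adjusted p = 0.890, edgeR), and it turned to 0.01 without GFAP-IL6 mouse 1. Its counts ran from 5912 in WT mouse 3 to 30867 in GFAP-IL6 mouse 3, so depth was not the limit for this gene.

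Cxcl14, at chr13:56288643-56296551 on the minus strand with 4 exons, was the second most abundant member. It measured 187, 177 and 197 CPM in the WT mice and 168, 165 and 172 CPM in the GFAP-IL6 mice. All GFAP-IL6 mice were below all WT mice, by a small margin. In single sets this held with 1 ng in sets A and B, whereas with 2 ng the genotypes overlapped in both. The log2 fold change was -0.15 (SE 0.0798), a fold of 0.901 with a 95% interval of 0.801 to 1.01, and did not pass (adjusted p = 0.655, edgeR). Cxcl14 and Cxcl16 were the tested members whose genotypes did not overlap, as was the case for 14.4% of all genes tested.

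Cxcl12 lies at chr6:117168535-117181367 on the plus strand and has the longest 3′ UTR of the members, 5191 bases in the coding transcript used. It measured 32.5, 36.2 and 36.1 CPM in the WT mice and 28.2, 37.4 and 46.3 CPM in the GFAP-IL6 mice. The GFAP-IL6 mice bracketed the WT mice on both sides. The log2 fold change was 0.12 (SE 0.142), a fold of 1.09 with a 95% interval of 0.882 to 1.34 (adjusted p = 0.892, edgeR), and it was -0.07 without GFAP-IL6 mouse 3.

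**Figure D3:**
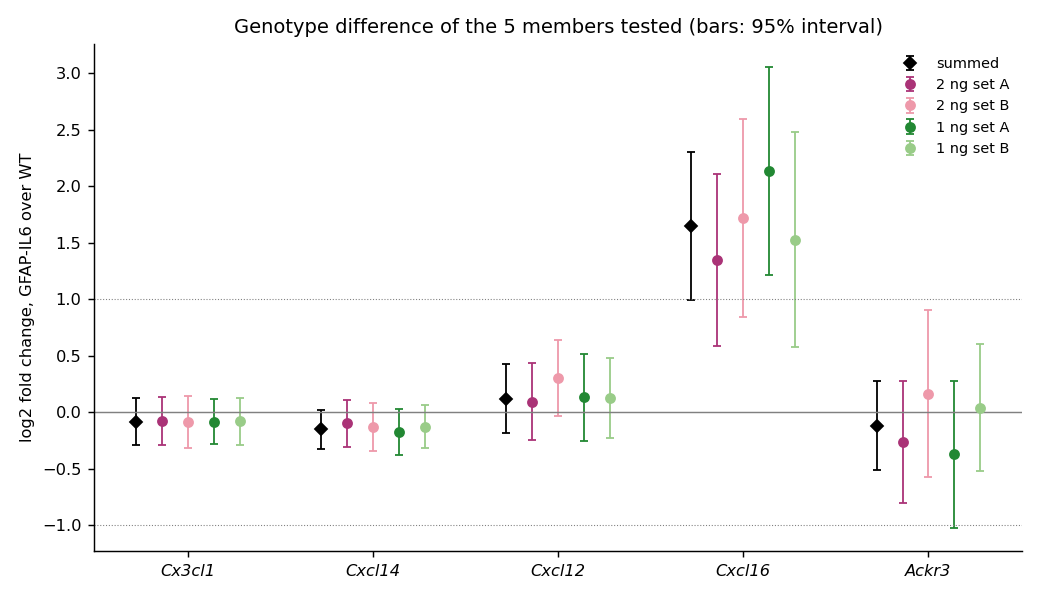
Log2 fold change of GFAP-IL6 over WT (y axis) of the 5 members tested (x axis), in the summed libraries (black diamonds) and in each of the 4 sets (coloured circles), with 95% intervals from edgeR, the dotted lines marking the fold threshold of 1. All 5 points of Cxcl16 lie between 1.35 and 2.14, and those of the other members lie between -0.37 and 0.30 with intervals that include 0.

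The remaining ligands were near the limit of detection. Before TMM scaling, 3 counts correspond to 0.0798 CPM in the deepest mouse and 0.382 CPM in the shallowest. Cxcl10, the interferon-induced ligand, had 4, 3 and 0 counts in the WT mice and 1, 12 and 31 counts in the GFAP-IL6 mice. In CPM this was 0.208, 0.166 and 0 against 0.105, 0.575 and 0.804, so GFAP-IL6 mouse 1 lay within the WT range (exact permutation p = 0.3). The pooled ratio of GFAP-IL6 to WT was 4.10, with an exact 95% interval of 1.83 to 10.8 that covers counting error only and not the spread between mice. Without the filter on low counts, Cxcl10 had a log2 fold change of 1.84 and an adjusted p of 0.421 in edgeR. Cxcl10 lies within Art3, a gene on the opposite strand that overlaps its last exon. Whether the counting used strand was not given in the sources used here, so reads of Art3 and Cxcl10 may not be separable.

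Cxcl1 had 0, 6 and 0 counts in the WT mice and 5, 2 and 12 in the GFAP-IL6 mice, a pooled ratio of 2.06 with a counting interval of 0.792 to 6.31. Cxcl13 had 0, 1 and 0 counts in the WT mice and 1, 3 and 5 in the GFAP-IL6 mice, a pooled ratio of 5.86 with a counting interval of 0.813 to 257. Both intervals include 1. Although the Cxcl13 levels did not overlap between genotypes (exact permutation p = 0.1, the smallest possible), each of them rests on at most 5 reads, so no difference was detectable at this depth for Cxcl1 or Cxcl13.

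Of the receptors among the members, Ackr3 showed no genotype difference that passed the test, and Cxcr4 was too low to test. Ackr3, an atypical receptor that removes Cxcl12 without G protein signalling, lies at chr1:90203980-90216751 on the plus strand with 2 exons. It measured 7.07, 8.69 and 8.52 CPM in the WT mice and 9.17, 6.09 and 7.41 CPM in the GFAP-IL6 mice, with overlapping genotypes. The log2 fold change was -0.12 (SE 0.184), a fold of 0.922 with a 95% interval of 0.703 to 1.21 (adjusted p = 0.930, edgeR). Cxcr4, the signalling receptor of Cxcl12, had 3, 2 and 3 counts in the WT mice and 0, 4 and 1 in the GFAP-IL6 mice. The pooled ratio was 0.407 with a counting interval of 0.105 to 1.41, and a difference was not detectable at this depth.

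Receptors of the ligands outside the members were compared in the same fit. Cx3cr1, the microglial receptor of Cx3cl1, measured 30.2, 35.3 and 37.8 CPM in the WT mice and 52.7, 45.6 and 69.7 CPM in the GFAP-IL6 mice. All GFAP-IL6 mice were above all WT mice. Cx3cr1 rose by 0.72 on the log2 scale (SE 0.141, adjusted p = 0.0119, edgeR), which stays under the fold threshold, and without GFAP-IL6 mouse 3 (0.52, adjusted p = 0.0904) or WT mouse 1 (0.63, adjusted p = 0.0658) it did not pass. It made up 8.07% to 9.64% of the summed microglia markers in the WT mice and 6.58% to 8.82% in the GFAP-IL6 mice. At an adjusted p under 0.05 with any fold, 1.8% of all genes passed, and Cxcl16 was the one member among them. Cxcr3, the receptor of Cxcl10, had 1 count in the WT mice together and 13 in the GFAP-IL6 mice, 11 of them in mouse 3. Cxcr5, the receptor of Cxcl13, had 1 count and 0 counts. Cxcr6, the receptor of Cxcl16, had 2 and 4 counts and is named outside the rule for named genes, after its values were seen.

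Of 16 other CXC and CX3C ligands and receptors listed, 15 were in the table and 4 could be tested. None was called, and Cx3cr1 and Ackr1 rose at an adjusted p under 0.05 below the fold threshold, with a median log2 fold change of 0.64 over the 4. Over all genes tested, 1.8% passed at an adjusted p under 0.05 with any fold, and the median was -0.01. Cxcl5, a neutrophil-attracting ligand, had the largest log2 fold change of the 4, 2.01 (SE 0.525) on 14 counts in WT and 98 in GFAP-IL6 mice, and did not pass on its adjusted p of 0.0791 (edgeR). Ackr1, an atypical chemokine receptor of red cells and venules that was named after its values were seen, rose by 0.57 on the log2 scale (adjusted p = 0.0234, edgeR). Cxcl2, Cxcl15 and Cxcr1 had no counts in any mouse.

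Of 24 genes that act downstream of chemokine receptors, 23 could be tested, 2 were called and both rose. Rac2, a haematopoietic small GTPase, went from 6.60 ± 1.06 to 16.4 ± 4.11 CPM (log2 fold change 1.31, adjusted p = 0.000809, edgeR, n = 3 each). Vav1, its haematopoietic exchange factor, went from 2.82 ± 0.992 to 7.39 ± 1.86 CPM (log2 fold change 1.51, adjusted p = 0.00527). The other 21, including G protein subunits, arrestins and receptor kinases, did not pass, and the median of the list was 0.16. Over all genes tested the median was -0.01 and 1.23% were called, 176 genes higher and 4 lower.

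Of 7 proteases that cut these ligands, 1 was called. Ctss, the microglial cathepsin S that releases Cx3cl1 from membranes, rose from 161 ± 12.8 to 562 ± 68.0 CPM (log2 fold change 1.81, adjusted p = 8.73e-08, edgeR, n = 3 each). Adam10 and Adam17, sheddases of Cx3cl1 and Cxcl16, had log2 fold changes of 0.02 and 0.34 (adjusted p of 0.990 and 0.655). The median of the list was 0.34, against -0.01 over all genes tested, of which 1.23% were called.

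Of 16 transcription factors and inhibitors of the NF-kB, interferon and interleukin 6 pathways, 3 were called and all rose. They were Socs3, the feedback inhibitor of interleukin 6 signalling (1.62, adjusted p = 0.0329), Cebpd, a transcription factor downstream of STAT3 (1.25, adjusted p = 0.000809), and Irf8, a transcription factor of myeloid cells (1.24, adjusted p = 0.00612), each as a log2 fold change from edgeR. Irf9, a part of the interferon-activated ISGF3 complex named after its values were seen, passed without reaching the fold threshold (0.78, adjusted p = 0.0251). The median of the list was 0.54, against -0.01 over all genes tested. Of all genes tested, 1.23% were called, 176 genes higher in GFAP-IL6 mice and 4 lower.

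**Figure D4:**
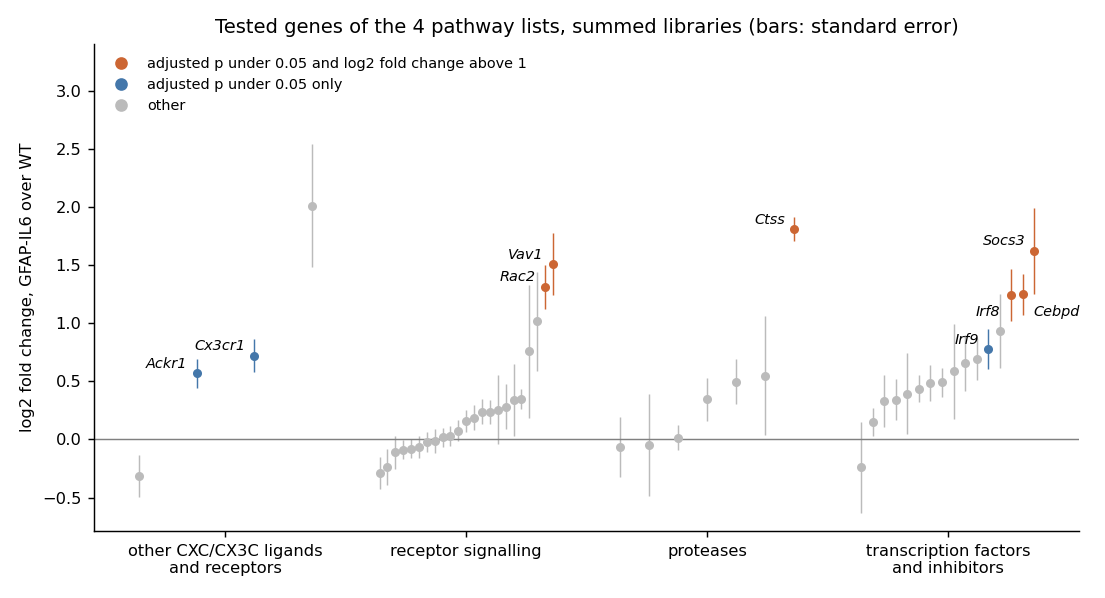
Log2 fold change of GFAP-IL6 over WT in the summed libraries (y axis) for the 50 tested genes of 4 pathway lists (x axis), sorted by value within a list, with standard errors as bars. Orange points are the 6 genes called, blue points are Cx3cr1, Ackr1 and Irf9, which passed at an adjusted p under 0.05 below the fold threshold, and grey points did not pass.

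Since each mouse was sequenced 4 times, the members could also be compared between library conditions within a mouse. These tests compare technical repeats of the same 6 RNAs and say nothing of spread between mice. In the study's protocol, samples were pooled before cDNA amplification and tagmentation, and the labels do not say which libraries shared a pool. The tests count each library singly, although libraries may have shared a reaction. A shift with cDNA amount or set therefore cannot be told apart from a shift between reactions. Between 2 ng and 1 ng of cDNA, 28.7% of all genes tested passed at an adjusted p under 0.05, and 1 of the 5 members did. That member was Cxcl14, which was lower at 2 ng in 12 of 12 pairs of libraries. Its mean was 201 ± 14.9 CPM at 1 ng and 145 ± 13.5 CPM at 2 ng (SD over 12 libraries of 6 mice), a log2 difference of -0.46 (SE 0.0328, adjusted p = 3.28e-17, edgeR), or a fold of 0.727 with a 95% interval of 0.695 to 0.761. This shift was larger than the genotype difference of -0.15, and mouse means ran from 187 to 223 CPM at 1 ng and from 132 to 157 CPM at 2 ng. The log2 differences of the other 4 members lay between -0.02 and 0.24 and did not pass.

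Between sets A and B, 28.8% of all genes passed, and 4 of the 5 members did. Cxcl12 fell from 40.2 ± 8.25 CPM in set A to 32.6 ± 5.67 CPM in set B (SD over 12 libraries of 6 mice), with a log2 difference of -0.27 (SE 0.0676, adjusted p = 0.00146, edgeR) and a lower value in 9 of 12 pairs. Cx3cl1 was lower in set B in 12 of 12 pairs, by a small step of -0.12 on the log2 scale (SE 0.0215, adjusted p = 3.03e-05), and Cxcl14 was higher in 11 of 12 pairs (0.11, SE 0.0327, adjusted p = 0.00734). Ackr3 fell from 9.21 ± 2.84 to 6.57 ± 1.58 CPM (-0.43, SE 0.144, adjusted p = 0.0208), but without WT mouse 1 or WT mouse 2 it did not pass (adjusted p of 0.0634 and 0.122). The Cxcl14 difference likewise did not pass without GFAP-IL6 mouse 3 (0.10, adjusted p = 0.0568). Cxcl16, the member called between genotypes, shifted by 0.24 with cDNA amount (adjusted p = 0.323) and by 0.12 with set (adjusted p = 0.652), with 95% intervals of -0.11 to 0.59 and -0.23 to 0.47.

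**Figure D5:**
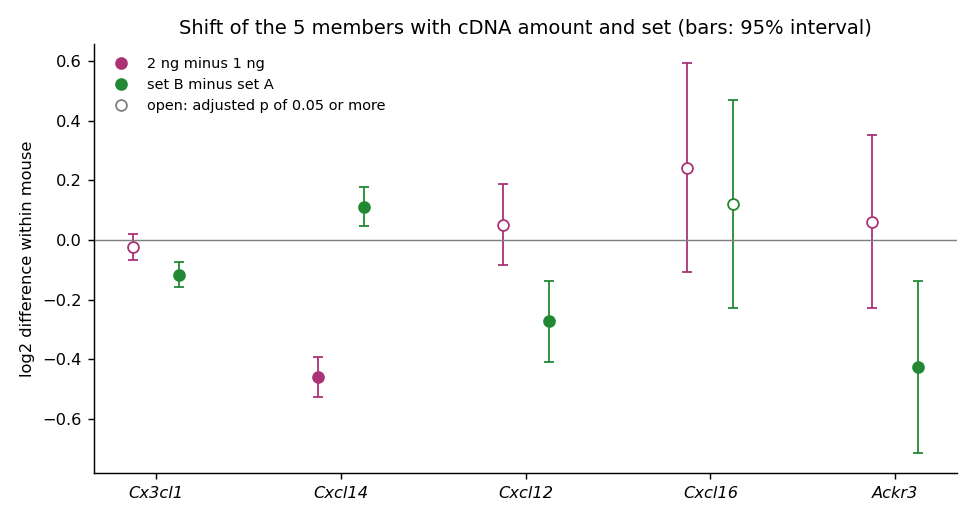
Log2 difference within mouse (y axis) of the 5 members tested (x axis) for 2 ng minus 1 ng of cDNA (purple) and set B minus set A (green), with 95% intervals from edgeR over 24 libraries, filled circles marking an adjusted p under 0.05. Cxcl14 stands lowest for cDNA amount at -0.46, and Cxcl12 and Ackr3 stand lowest for set at -0.27 and -0.43.

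The 5 members also differed in how far the 4 libraries of a mouse lay apart. The coefficient of variation had a median over mice of 5.30% for Cx3cl1, 11.8% for Cxcl12, 19.6% for Cxcl14, 30.02% for Cxcl16 and 33.8% for Ackr3. For Cxcl16 it ran from 6.07% to 116%, the highest value coming from the mouse with 7 reads in all.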

How the data were processed

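The submitters' processing notes name STAR 2.4 and featureCounts. By the study's methods, polyA stretches were trimmed, reads were aligned to mm10 and uniquely aligned reads were counted on GENCODE genes. The deposited table holds whole-number counts as the authors' counter gave them, with gene lengths and without normalization. The notes list another build, hg19, but the gene identifiers are those of mouse. Positions and transcript sequences came from GENCODE vM21 on mm10.

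Groups were taken from the labels. Counts of the 4 libraries of each mouse were summed, and the genotype difference was fitted in edgeR 4.0.16 under R 4.3.3 (TMM, filterByExpr, quasi-likelihood test, Benjamini-Hochberg over all genes tested) in the sums and in each set. Contrasts of cDNA amount and set had the mouse as a term over 24 libraries. Standard errors given for edgeR were derived from the log2 fold change and the F statistic of the test. The 95% intervals of log2 fold changes were built from these with t quantiles. Differences of the genotype effect between sets were tested with limma 3.58.1 (voom, mouse as random block, correlation 0.259). Levels of 3 against 3 mice went into an exact two-sided permutation test, whose smallest p is 0.1. Ratios of low counts have exact conditional binomial intervals at 95%. PCR copies were not marked by molecular identifiers, so the intervals, like the floor of 3 counts, cover counting error only. Nothing in the labels says which mice shared a litter or a cage. Profiles were compared on log2(CPM + 0.5). Python 3.11.15 with scipy 1.17.1 was used for these steps, and the fits were tested on simulated data. Alternatives were DESeq2 1.42.0, its size factors, other filters, a replicate block, equal totals and each mouse left out.

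The members, gene lists and tests were chosen with earlier results of these data known. Named genes were all 9 members, Il6, Gfap, the called genes of each list (at most 5), Cx3cr1, Cxcr3, Cxcr5 and the 3 genes with the profile closest to each called member. Other genes of the lists are named in the results after their values were seen. Depth per library is given with the results.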

Additional observations from a re-analysis of the deposited data

How the results depend on the processing

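Cxcl16 kept a higher level in GFAP-IL6 mice in the summed libraries under each alternative that could test it, with log2 fold changes of 1.38 to 1.86. The count of 1 member called went to 0 when at least 10 counts were required in every mouse, since WT mouse 3 had 7, and ran from 0 to 1 when mice were left out, with 0 without GFAP-IL6 mouse 3. Leaving out mice gave 106 to 201 genes called in the sums, 46 to 102 in 2 ng set A, 45 to 114 in 2 ng set B, 52 to 115 in 1 ng set A and 45 to 113 in 1 ng set B. In the sets, members called while mice were left out ran from 0 to 0 in 2 ng set A and from 0 to 1 in the other sets. In 2 ng set B no member (0) was called with DESeq2, with at least 10 counts in every library, with the replicate block or at equal totals. In 1 ng set A none (0) was called with at least 10 counts or at equal totals. The 10-count rule left Cxcl16 untested in both of these sets, since WT mouse 3 had 0 counts in 2 ng set B and 2 in 1 ng set A. Without the filter on low counts, 1 member was called in 2 ng set A and 1 in 1 ng set B.

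Over all genes, at least 10 counts in every library left 40, 39 and 53 called in 2 ng set A, 2 ng set B and 1 ng set A, equal totals left 55 and 56 in 2 ng sets A and B, and dropping the fold threshold gave 125 in 2 ng set A. Counts are of all genes called and do not say which genes these are. With genotype in place of the mouse as the replicate block, 2325 genes were called for cDNA amount and 2185 for set, where 2 members were called instead of 4. Apart from genes that the 10-count rule left untested, the cause of these changes was not tested.

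Same-numbered WT and GFAP-IL6 mice did not deviate together (r of -0.04, -0.03 and -0.03 across genes), and differently numbered mice gave r of -0.08 to 0.12. The deviations were centred within 3 mice per genotype, so these values cannot show whether the mice were paired. With the mouse numbers as a replicate block, 149 genes were called in the sums against 180, and 59 in 2 ng set B against 91. Cxcl16 then had a log2 fold change of 1.597 (adjusted p = 0.0343, edgeR) in the sums.

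Small differences of members that were not called changed sign when a mouse was left out. For Cx3cl1 the log2 fold changes without each mouse ran from -0.157 to 0.0102 in the sums, from -0.166 to 0.0213 in 2 ng set A, from -0.169 to 0.0353 in 2 ng set B and from -0.144 to 0.00423 in 1 ng set B, each positive only without GFAP-IL6 mouse 1, and equal totals gave 0.00483 in 2 ng set A. For Cxcl12 they ran from -0.0717 to 0.268 in the sums, from -0.0871 to 0.248 in 2 ng set A, from -0.107 to 0.307 in 1 ng set A and from -0.121 to 0.230 in 1 ng set B, each negative only without GFAP-IL6 mouse 3, and the replicate block gave -0.00163 in 2 ng set A. For Ackr3 they ran from -0.245 to 0.0162 in the sums, from -0.0421 to 0.3498 in 2 ng set B, from -0.0369 to 0.134 in 1 ng set B and from -0.00212 to 0.0984 for cDNA amount. Depth limits Cxcl1, Cxcl10, Cxcl13 and Cxcr4, which stayed under the filter on low counts in the main comparison.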
